A study of Homo sapiens with 6 samples.

Results

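The enzymes described here carry out steps of the citric acid cycle, or stand beside it, in U87MG cells exposed to P-bi-TAT, a bivalent tetrac-containing compound that binds the thyroid hormone receptor on integrin αvβ3. They were chosen by symbol, as 9 named genes of the cycle, and 8 of them were measured among the 17687 genes of the array that carry 1 symbol. The 8 genes are CS, IDH1, IDH2, IDH3A, OGDH, DLST, SUCLG1 and MDH2, each with 1 probe set, and FH is not analysed here. U87MG is a long-established line of human glioblastoma. In the treated group, 3 samples had P-bi-TAT at 30 µM over 24 h, and the 3 samples called untreated had PBS for that time. Both groups were grown in RPMI with serum, and by the study's methods they had been moved to medium low in serum before the agent was added. Each sample was read on 1 Affymetrix Clariom S array, and the values are those the authors deposited, log2 expression by probe set. No source used here says that the 3 replicates of a group came from separate cultures, so a p-value here covers no more than the spread of the arrays, which may be technical.

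The citric acid cycle is the mitochondrial pathway that oxidizes the acetyl group of acetyl-CoA to carbon dioxide and passes the electrons to NADH and FADH2, which feed the respiratory chain. Its intermediates also leave the cycle, as citrate for lipid synthesis and as oxoglutarate for amino acids, so growing tumor cells use it both for energy and as a source of carbon. In glioma the cycle is known for the isocitrate dehydrogenases, of which IDH1 works in the cytosol and peroxisomes and is a relative of the cycle rather than a step of it.

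One treated array, P-bi-TAT replicate 1, differed as a whole from the rest. The median of its gene probe sets was 3.52 on the log2 scale, against 4.73 to 4.85 in the other 5 arrays, and it held 4527 distinct values, against 23072 to 23438. Of all genes, 8.44% were above the untreated mean in this array, compared to 48.9% and 49.9% in the other treated arrays. Those replicates correlated with each other at 0.987 over the gene probe sets, against 0.923 to 0.953 between untreated arrays. The median of the negative control probe sets was 3.67 to 3.98 in the untreated arrays and 3.20 to 3.27 in the P-bi-TAT arrays, and each of the 8 enzymes was above it in both groups. Of 8 glioma line markers 5 were above it in both groups, namely VIM and CD44, at means of 15.25 and 10.86 in untreated cells, FN1, NES and the glial marker S100B, which was at 4.73 in untreated cells and at 3.57 after P-bi-TAT. The glial markers GFAP and OLIG2 and the mesenchymal marker CHI3L1 were not above it in either group. Of 8 markers of other cell types the macrophage marker CD68 and the neuronal markers RBFOX3 and SYT1 were above it in both groups, and the endothelial gene CDH5 and the epithelial genes EPCAM and CDH1 in neither. CD68 was at 11.92 in untreated cells and at 12.13 after P-bi-TAT. The leukocyte marker PTPRC was above it in untreated cells only, at 4.28 against 2.79 after P-bi-TAT. The endothelial marker PECAM1 was above it in treated cells only, at 3.41 against 3.43 in untreated cells, where the negative controls were higher. Log2 differences are therefore given with and without P-bi-TAT replicate 1, and the number of arrays limits its precision.

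The promoters of IDH3A and MDH2 are shown because these genes had the highest values relative to untreated cells in treated replicates 2 and 3, and that of IDH3B because this partner subunit of IDH3A was lower there. Each line gives the 250 bases before the RefSeq start (GRCh38.p14), 5′ to 3′ on the strand of the gene, at chr15:78149112-78149361 (plus strand), chr7:76047856-76048105 (plus strand) and chr20:2664217-2664466 (minus strand). Capitals mark matches to the motifs of NRF1 and of ETS factors such as GABPA, both known from promoters of mitochondrial genes.
IDH3A: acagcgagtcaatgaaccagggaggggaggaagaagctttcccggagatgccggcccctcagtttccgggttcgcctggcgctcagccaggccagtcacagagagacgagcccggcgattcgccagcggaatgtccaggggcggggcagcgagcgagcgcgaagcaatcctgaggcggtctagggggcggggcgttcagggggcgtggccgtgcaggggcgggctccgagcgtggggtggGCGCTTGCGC
MDH2: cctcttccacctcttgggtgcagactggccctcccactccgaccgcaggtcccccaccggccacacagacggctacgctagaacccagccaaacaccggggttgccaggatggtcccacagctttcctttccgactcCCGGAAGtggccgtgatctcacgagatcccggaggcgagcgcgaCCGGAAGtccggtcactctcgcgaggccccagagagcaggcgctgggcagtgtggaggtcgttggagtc
IDH3B: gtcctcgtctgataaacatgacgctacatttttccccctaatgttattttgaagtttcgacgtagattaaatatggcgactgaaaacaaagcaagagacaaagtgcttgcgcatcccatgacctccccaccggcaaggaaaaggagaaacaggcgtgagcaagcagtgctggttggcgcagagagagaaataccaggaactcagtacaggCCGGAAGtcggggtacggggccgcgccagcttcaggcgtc

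The NRF1 motif was searched in its consensus form and the ETS motif as CCGGAAG, both strands being read. Windows were held for 7 of the 8 enzymes, with 2 windows for IDH1. An NRF1 match was found in IDH3A, against 5.07% of all 35116 promoter windows of the same length. ETS matches were found in MDH2, which had 2, and in DLST, which had 1, against 8.52% of all windows, and IDH3B had 1. A GC box (GGGCGG) was found in CS, DLST, IDH1 and IDH3A, against 42.6% of all windows. The letters of the ERR element (TNAAGGTCA), the cyclic AMP response element (TGACGTCA) and the YY1 element were in 0 of the windows of these enzymes, against 0.854%, 1.65% and 0.823% of all windows. No motif overlapped another of a different kind in the 3 promoters shown. These matches describe the letters only.

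All 8 enzymes were below every untreated array in P-bi-TAT replicate 1 and above the untreated mean in both other treated arrays. In replicate 1 they lay 1.15 to 3.89 below the untreated mean on the log2 scale, with a median of -2.26 against -1.23 over all genes. There, 75.0% of all genes were below every untreated array and 3.12% above. In treated replicate 2 the enzymes lay 0.20 to 2.40 above the untreated mean and in replicate 3 0.48 to 2.92 above it. Their medians were 1.31 and 0.94, while the medians over all genes were -0.02 and -0.00. The enzymes are brighter than most genes, with a median percentile of 87.8 to 92.8 among the gene probe sets of each array. The medians over all genes are thus not of genes of like brightness. Treated replicates 2 and 3 were both above every untreated array for 6 of the 8 enzymes, as for 19.1% of all genes. The exceptions were IDH2 and OGDH. With all 6 arrays the 8 log2 differences of P-bi-TAT minus untreated had a median of 0.15, against -0.43 over all genes, and ran from -0.57 for IDH1 to 0.99 for MDH2. Of the 8, 0 passed an adjusted p under 0.05 in limma, where 0% of the genes did (n = 17687, with 914 at an unadjusted p under 0.05 and 1 passing a one-way test such as the study used). The lowest adjusted p among the 8 was 0.890, for MDH2. At 1.5-fold and an unadjusted p under 0.05, 0 of the 8 were higher and 0 lower, against 0.192% and 4.98% of all genes.

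**Figure D1:**
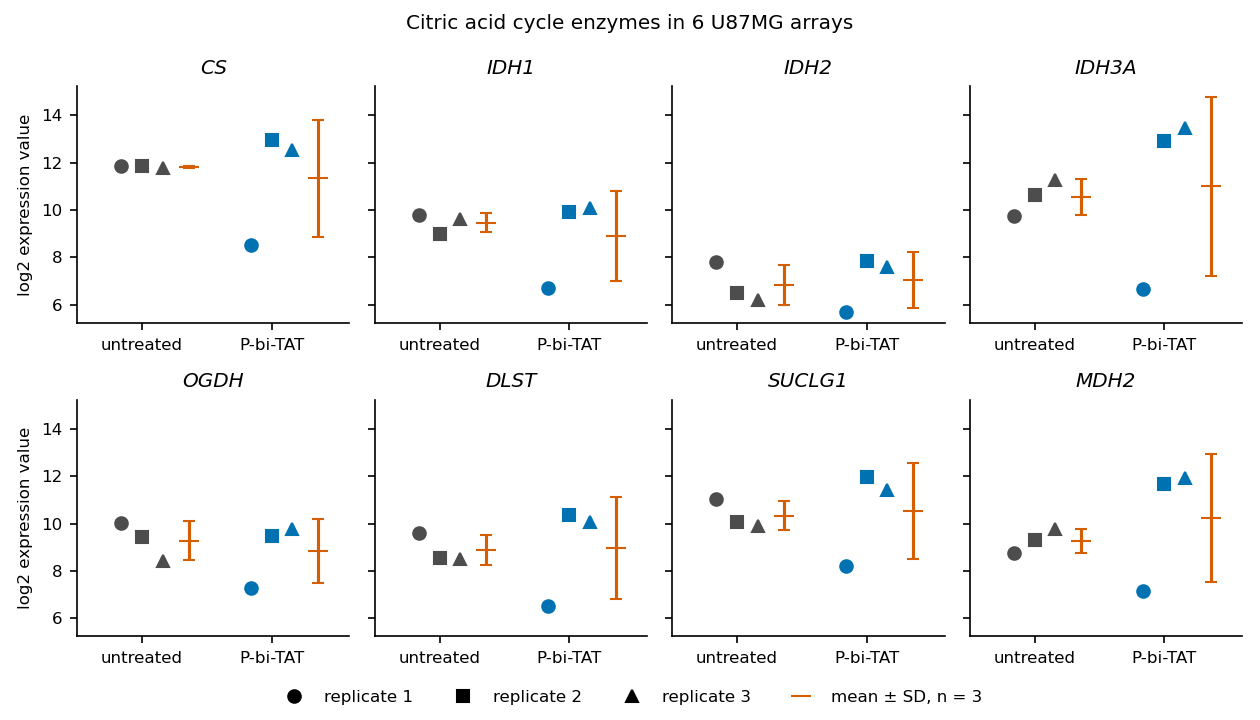
Log2 expression value of each of the 8 enzymes (vertical axis) in the untreated and P-bi-TAT arrays (horizontal axis). Points are single arrays, with the shape giving the replicate number, and orange bars are the mean ± SD of 3 arrays. P-bi-TAT replicate 1 lies below all untreated arrays in each panel.

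Without P-bi-TAT replicate 1, all 8 log2 differences were above 0, with a median of 1.13 against -0.01 over all genes, and ran from 0.34 to 2.64. At 1.5-fold and an unadjusted p under 0.05, 5 of the 8 enzymes were then higher (CS, DLST, IDH3A, MDH2 and SUCLG1), against 9.26% of all genes, and 0 were lower, against 5.31%. None of the 8 passed an adjusted p under 0.05 in limma, where 0 of all genes passed and 2577 were at an unadjusted p under 0.05. When the 5 remaining arrays were also quantile normalized, 2 of the 8 stayed at these limits, IDH3A and MDH2, against 5.61% of all genes. In that setting 7 of the 8 were above 0, with OGDH at -0.04, and the median of the 8 was 0.75. With the intensity trend of each array removed instead, the median of the 8 was 0.77. The P-bi-TAT group then consists of the 2 arrays that were most alike.

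**Figure D2:**
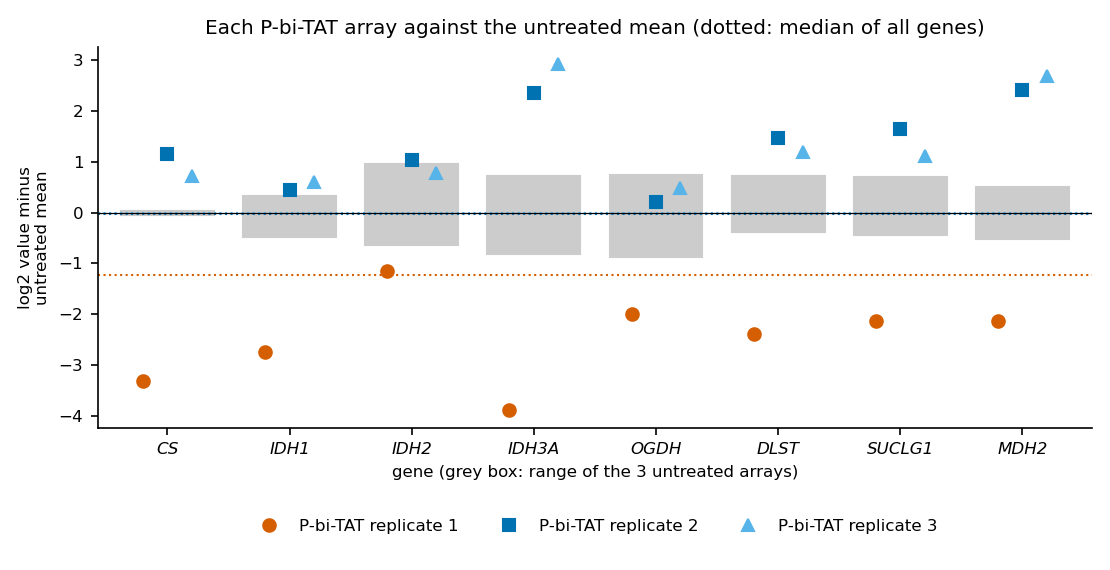
Log2 value of each enzyme in each P-bi-TAT array minus the mean of the untreated arrays (vertical axis), by gene (horizontal axis). Grey boxes span the 3 untreated arrays and dotted lines give the median of all genes in each P-bi-TAT array, -1.23 in replicate 1. Replicates 2 and 3 of IDH3A and MDH2 lie more than 2 log2 units above the untreated mean.

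CS, citrate synthase, condenses acetyl-CoA with oxaloacetate and opens the cycle. It was at 11.86, 11.84 and 11.77 in the untreated arrays and at 8.51, 12.97 and 12.54 after P-bi-TAT (replicates 1, 2 and 3, the order used throughout). The untreated arrays lay within 0.09 of each other, the narrowest range among the 8 enzymes, and all 3 P-bi-TAT arrays were outside it, 1 below and 2 above. The log2 difference was -0.49 with a standard error of 1.14 (limma, adjusted p = 0.935), and 0.93 with a standard error of 0.37 without P-bi-TAT replicate 1 (adjusted p = 0.321, unadjusted p = 0.0373, limma).

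IDH3A is the catalytic alpha subunit of the NAD-dependent isocitrate dehydrogenase of mitochondria, which turns isocitrate into oxoglutarate. Its untreated values were 9.73, 10.64 and 11.27, and its P-bi-TAT values 6.65, 12.90 and 13.47. It had both the lowest position in P-bi-TAT replicate 1 and the highest in replicate 3 among the 8 enzymes, at 3.89 below and 2.92 above the untreated mean. The log2 difference was 0.46 with a standard error of 1.73 (limma, adjusted p = 0.963). Without P-bi-TAT replicate 1 it was 2.64 with a standard error of 0.52, which is 6.22 times the untreated level (adjusted p = 0.151, unadjusted p = 8.85e-04, limma).

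The same enzyme has a beta and a gamma subunit, and they did not share one pattern. IDH3B, the beta subunit, was at 11.59, 11.51 and 10.44 in the untreated arrays and at 10.91, 10.38 and 10.00 in P-bi-TAT replicates 1, 2 and 3. Replicates 2 and 3 were thus below all untreated arrays, as for 17.9% of all genes. Replicate 1 was within the untreated range. The difference on the log2 scale was -0.75 with a standard error of 0.50 (limma, adjusted p = 0.847), and -0.99 without P-bi-TAT replicate 1 (adjusted p = 0.383). IDH3G, the gamma subunit, was at 11.59, 11.12 and 11.16 in the untreated arrays and at 9.75, 12.63 and 12.46 after P-bi-TAT, with replicate 1 below and replicates 2 and 3 above all untreated arrays, as in IDH3A. Its log2 difference was 0.32, and 1.25 with a standard error of 0.38 without P-bi-TAT replicate 1 (adjusted p = 0.235, unadjusted p = 0.0109, limma). The difference IDH3A minus IDH3B within an array, which an equal shift of all values in an array leaves unchanged, was -1.85, -0.87 and 0.84 in untreated cells and -4.25, 2.53 and 3.47 after P-bi-TAT. It was lowest in P-bi-TAT replicate 1 and highest in replicates 2 and 3, and the groups overlapped (exact permutation test, two-sided p = 0.7, adjusted p = 0.9 over 7 such pairs). P-bi-TAT replicate 1 did not differ by an equal shift for these subunits, with IDH3A at -3.89 and IDH3B at -0.27 relative to the untreated mean. For the other 6 pairs of subunits or isoenzymes the exact permutation p ran from 0.4 to 0.9.

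IDH1 and IDH2 are the NADP-dependent isocitrate dehydrogenases of the cytosol and of mitochondria, which make NADPH. IDH1 was at 9.79, 8.997 and 9.63 in the untreated arrays and at 6.72, 9.92 and 10.07 after P-bi-TAT. Its replicates 2 and 3 were above the untreated arrays by little, and the log2 difference was -0.57 with a standard error of 0.92 (limma, adjusted p = 0.913), or 0.52 without replicate 1 (adjusted p = 0.574). IDH2 was at 7.79, 6.51 and 6.18 in the untreated arrays and at 5.68, 7.86 and 7.61 after P-bi-TAT, so that replicate 3 lay inside the untreated range. Its log2 difference was 0.22 with a standard error of 0.74 (limma, adjusted p = 0.958), and 0.91 without replicate 1 (adjusted p = 0.463).

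OGDH and DLST encode the first and second enzymes of the oxoglutarate dehydrogenase complex, which makes succinyl-CoA. OGDH was at 10.02, 9.41 and 8.41 in the untreated arrays and at 7.29, 9.48 and 9.76 after P-bi-TAT. Its replicates 2 and 3 were inside the untreated range, and its log2 difference without replicate 1, 0.34 with a standard error of 0.52, was the lowest of the 8 (limma, adjusted p = 0.781). DLST was at 9.59, 8.55 and 8.48 in the untreated arrays and at 6.49, 10.35 and 10.07 after P-bi-TAT. It differed by 0.10 on the log2 scale with a standard error of 1.05 (limma, adjusted p = 0.988), and 1.34 without replicate 1 (unadjusted p = 0.0192, adjusted p = 0.265). DLD, the third enzyme, which the pyruvate dehydrogenase complex shares, was at 6.92, 8.37 and 9.98 in the untreated arrays and at 3.52, 9.31 and 9.29 after P-bi-TAT, a spread of 3.06 within untreated cells. The log2 difference of DLD was -1.05 with a standard error of 1.65 (limma, adjusted p = 0.910), and 0.87 with a standard error of 0.78 without replicate 1 (adjusted p = 0.623).

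SUCLG1 is the alpha subunit of succinyl-CoA ligase, the step that yields a nucleoside triphosphate directly. It was at 11.02, 10.08 and 9.89 in the untreated arrays and at 8.20, 11.98 and 11.44 after P-bi-TAT. Replicates 2 and 3 lay above all untreated arrays, and the log2 difference was 0.21 with a standard error of 1.00 (limma, adjusted p = 0.972), or 1.38 without replicate 1 (unadjusted p = 0.0185, adjusted p = 0.262). The beta subunits SUCLG2 and SUCLA2, which set the use of GDP or ADP, had log2 differences of -0.03 (standard error 0.82) and -0.81 (standard error 1.63), and of 0.79 and 0.95 without replicate 1, with adjusted p from limma of at least 0.520.

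MDH2, mitochondrial malate dehydrogenase, makes the oxaloacetate that CS uses and closes the cycle. Its untreated values were 8.73, 9.28 and 9.76, and its P-bi-TAT values 7.13, 11.66 and 11.94. The log2 difference was 0.99 with a standard error of 1.26 (limma, adjusted p = 0.890; exact permutation test over the 6 arrays, two-sided p = 0.5, where the smallest that 3 against 3 allow is 0.1). Without P-bi-TAT replicate 1 it was 2.54 with a standard error of 0.43, which is 5.82 times the untreated level (adjusted p = 0.136, unadjusted p = 3.42e-04, limma). MDH1, the cytosolic enzyme, was at 6.82, 8.33 and 6.14 in the untreated arrays and at 6.86, 8.51 and 8.01 after P-bi-TAT, so P-bi-TAT replicate 1 lay within its untreated range. The log2 difference of MDH1 was 0.70 with a standard error of 0.71 (limma, adjusted p = 0.874), and 1.16 with a standard error of 0.63 without replicate 1 (adjusted p = 0.434).

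The log2 values of P-bi-TAT replicate 1 were lower as a distribution, though not by an equal amount for each gene. Each enzyme was therefore also placed among the gene probe sets of its own array, where the percentile does not depend on the scale. By this measure 7 of the 8 enzymes overlapped between the groups or lay on both sides of the untreated range, and MDH2 did not. It was at the 85.3, 87.4 and 89.4 percentiles in the untreated arrays and at the 90.1, 94.9 and 95.6 percentiles in P-bi-TAT replicates 1, 2 and 3. All 3 P-bi-TAT arrays above all untreated arrays was found for 7.41% of all genes by this measure, and all 3 below, which held for 0 of the 8, for 6.38%. IDH3A was at the 90.1, 93.1 and 94.8 percentiles in the untreated arrays, at 88.0 in P-bi-TAT replicate 1, and at 97.2 and 97.9 in replicates 2 and 3. IDH2 was highest in P-bi-TAT replicate 1, at the 81.8 percentile, against 79.7, 68.5 and 64.8 in untreated cells and 76.5 and 74.1 in replicates 2 and 3. CS, at 95.9 to 96.3 in untreated cells, was at 94.3 in replicate 1 and at 97.3 and 96.7 in replicates 2 and 3. IDH3B was at 97.8 in P-bi-TAT replicate 1, above the untreated 92.3 to 95.8, and at 90.8 and 89.2 in replicates 2 and 3, below them.

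**Figure D3:**
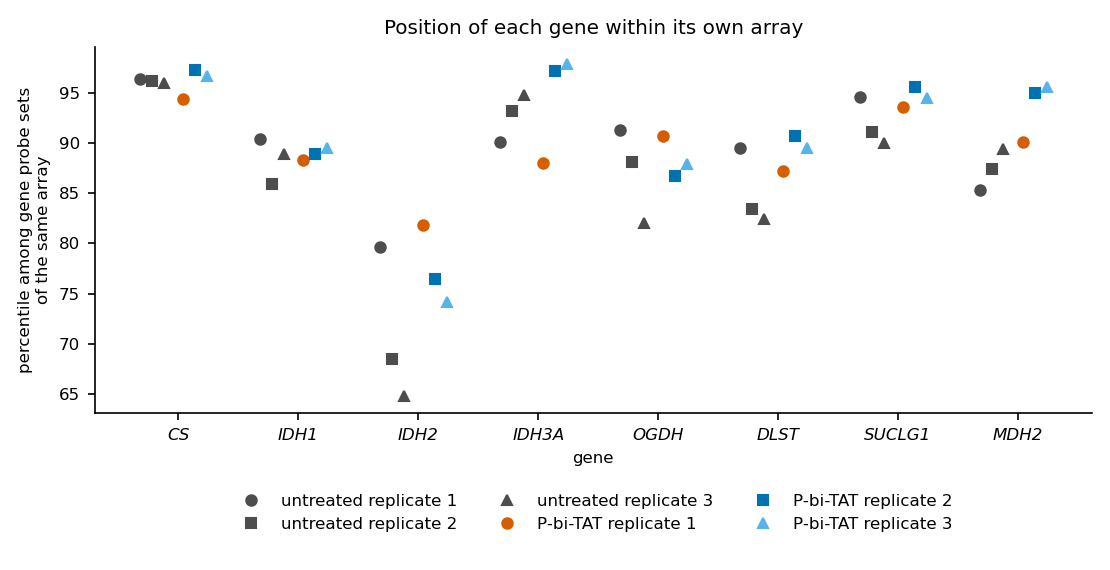
Percentile of each enzyme among the gene probe sets of the same array (vertical axis), by gene (horizontal axis), with untreated arrays in grey and P-bi-TAT arrays in color. MDH2 is higher in the 3 P-bi-TAT arrays than in the 3 untreated arrays, and IDH3A is so in replicates 2 and 3 only.

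Quantile normalization of all 6 arrays, which gives each array the same distribution, left 1 of the 8 enzymes at 1.5-fold and an unadjusted p under 0.05, MDH2, against 3.82% of all genes, and 0 were lower, against 3.12%. Its values were then 8.54, 8.93 and 9.34 in untreated cells and 9.50, 10.98 and 11.29 after P-bi-TAT. The log2 difference was 1.66 with a standard error of 0.53 (adjusted p = 0.719, unadjusted p = 0.0123, limma). IDH3A had 1.12 with a standard error of 0.91 (adjusted p = 0.847), as P-bi-TAT replicate 1 was at 9.04 and the other P-bi-TAT arrays at 12.23 and 12.86. CS and IDH1 had 0.08 each.

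Within the untreated group the enzymes fell into different orders. IDH3A and MDH2 were lowest in untreated replicate 1 and highest in replicate 3, by 1.54 and 1.02. IDH2, OGDH, DLST and SUCLG1 were highest in untreated replicate 1 and lowest in replicate 3, by 1.61, 1.61, 1.11 and 1.13. Across the 6 arrays after quantile normalization, the correlation between members was highest for DLST with SUCLG1 (r = 0.990) and next highest for IDH3A with MDH2 (r = 0.864), and lowest for IDH3A with OGDH (r = -0.531). In the values as deposited all 28 pairs had r between 0.624 and 0.996, with P-bi-TAT replicate 1 low for each gene. These correlations describe 6 arrays that differ in distribution, and they have no test.

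Outside the lists of the cycle and its surroundings, the 5 genes whose values over the 6 arrays were most like the mean of the 8 enzymes were RANBP3, TBC1D2, RBM39, NLE1 and CCDC62, with Pearson's r from 0.998 to 1.000. In RANBP3 the untreated values were 7.51, 7.08 and 7.14 and the P-bi-TAT values 4.63, 8.57 and 8.56, so the likeness is to the low P-bi-TAT replicate 1 and the raised replicates 2 and 3.

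Succinate dehydrogenase belongs both to the cycle and to the respiratory chain as complex II, and SDHA and SDHC were inside their untreated range in replicates 2 and 3 after P-bi-TAT while SDHD was above it. SDHA, the flavoprotein subunit, was at 8.98, 8.37 and 8.74 in the untreated arrays and at 6.16, 8.76 and 8.72 after P-bi-TAT. Its log2 difference was -0.82 (standard error 0.76), and 0.04 (standard error 0.39) without replicate 1. SDHC, a membrane anchor, had -0.90 and then 0.07, and SDHD, the other anchor, had -0.76 and then 0.74 (limma, adjusted p of at least 0.420 in these fits). Of the 8 measured enzymes of the cycle outside the chosen ones, 1 was above 0 with all 6 arrays, and 7 were without P-bi-TAT replicate 1. The shares of all genes were 21.3% and 49.3%. The medians of these 8 enzymes were -0.78 and 0.77.

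**Figure D4:**
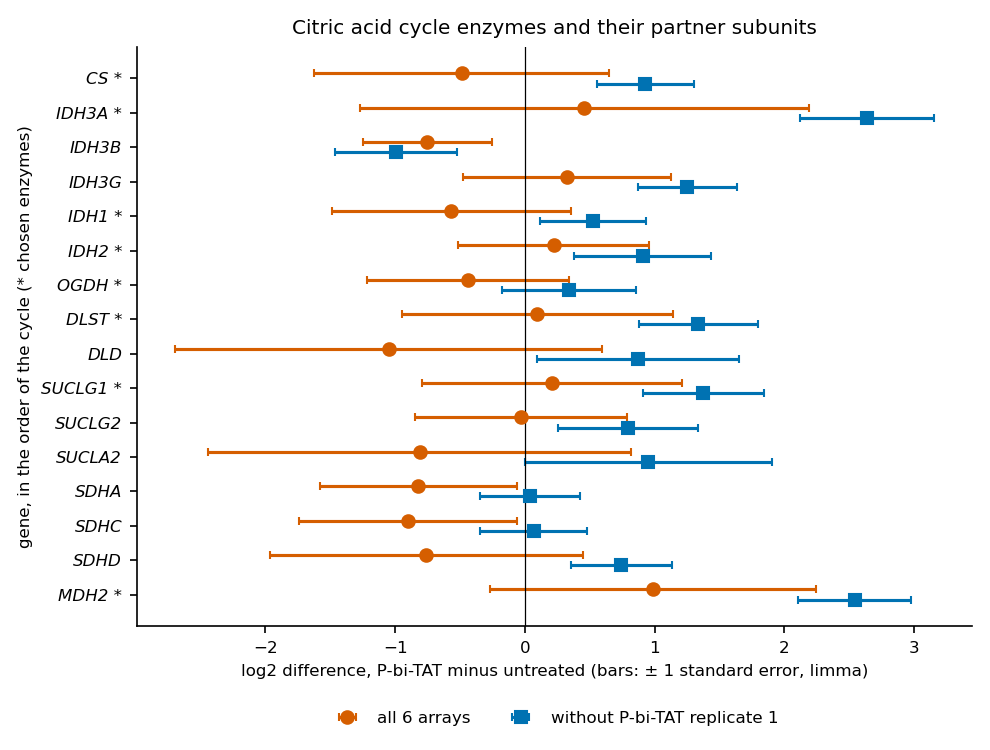
Log2 difference of P-bi-TAT minus untreated (horizontal axis) for the 8 chosen enzymes and the 8 other measured enzymes of the cycle (vertical axis), from all 6 arrays and from the 5 left after dropping P-bi-TAT replicate 1. Bars are ± 1 standard error from limma. Without that array IDH3B, at -0.99, is the gene below 0 and SDHA and SDHC are near 0.

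The wider list held 42 genes, and 38 were measured. They were of the rest of the cycle, of its cytosolic and tissue-specific relatives, of pyruvate entry, of carbon exchange and of complex II assembly. With all 6 arrays 9 of the 38 were above 0 and 29 below, a share of 23.7% above 0 against 21.3% of all genes, and 0 passed an adjusted p under 0.05 or the limits of 1.5-fold and an unadjusted p under 0.05. With P-bi-TAT replicate 1 left out, 4 of the 38 were higher at the latter limits, near the share of all genes, 9.26%. At the same limits 0 of the 38 were lower, against 5.31% of all genes. Besides IDH3G the higher genes were PDK2, SDHAF2 and GOT2. PDK2, a kinase that switches off pyruvate dehydrogenase, was at 6.97, 5.78 and 5.69 in untreated cells and at 4.09, 8.33 and 8.56 after P-bi-TAT, and its difference on the log2 scale was 0.84 with all arrays and 2.30 without replicate 1 (standard error 0.49, adjusted p = 0.158 from limma). SDHAF2, which attaches the flavin of SDHA, had 0.94 and then 1.98 (standard error 0.49, adjusted p = 0.179). GOT2, the mitochondrial aspartate aminotransferase, had 0.08 and then 0.91 (standard error 0.38, adjusted p = 0.332). Of the 12 measured genes of pyruvate entry, 3 were above 0 with all arrays and 8 without replicate 1. The shares of all genes were 21.3% and 49.3%. The medians of these 12 genes were -0.36 and 0.25. PDHA1 and PDHB, which form the first enzyme of the pyruvate dehydrogenase complex, had log2 differences of -0.69 and -1.04 with all arrays, and of -0.05 and -0.22 without replicate 1. Of the 11 measured genes of carbon exchange, 2 and then 5 were above 0, against 21.3% and then 49.3% of all genes. GLUD1, glutamate dehydrogenase, which feeds oxoglutarate to the cycle and was singled out after its values were seen, was at 12.27, 12.18 and 12.28 in untreated cells and at 10.00, 11.54 and 11.55 after P-bi-TAT, so all 3 P-bi-TAT arrays were lower, as for 14.5% of all genes. Its log2 difference was -1.21 with a standard error of 0.53 (adjusted p = 0.847, unadjusted p = 0.0566, limma), and -0.70 with a standard error of 0.36 without replicate 1 (adjusted p = 0.418). By percentile within the array GLUD1 in P-bi-TAT replicate 1, at 96.8, lay inside the untreated range of 96.7 to 97.0.

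MDH2 had a log2 difference above 0 in all 18 processing alternatives, from 0.14 to 2.54, and it was the one enzyme of the 8 with 1 sign throughout. Its lowest values, 0.14 and 0.28, came with P-bi-TAT replicate 3 and replicate 2 left out. The share of all genes with 1 sign throughout is not given here. IDH3A was above 0 in 16 of the 18 and below 0 when P-bi-TAT replicate 2 or 3 was left out. CS was above 0 in 6, and IDH1 and OGDH were above 0 in 5 each. These counts include alternatives that leave each log2 difference of the 8 as it was and so could not change a sign. They are the replicate block, the filter on dim probe sets, the changes of eBayes, the one-way test and the averaging of probe sets.

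**Figure D5:**
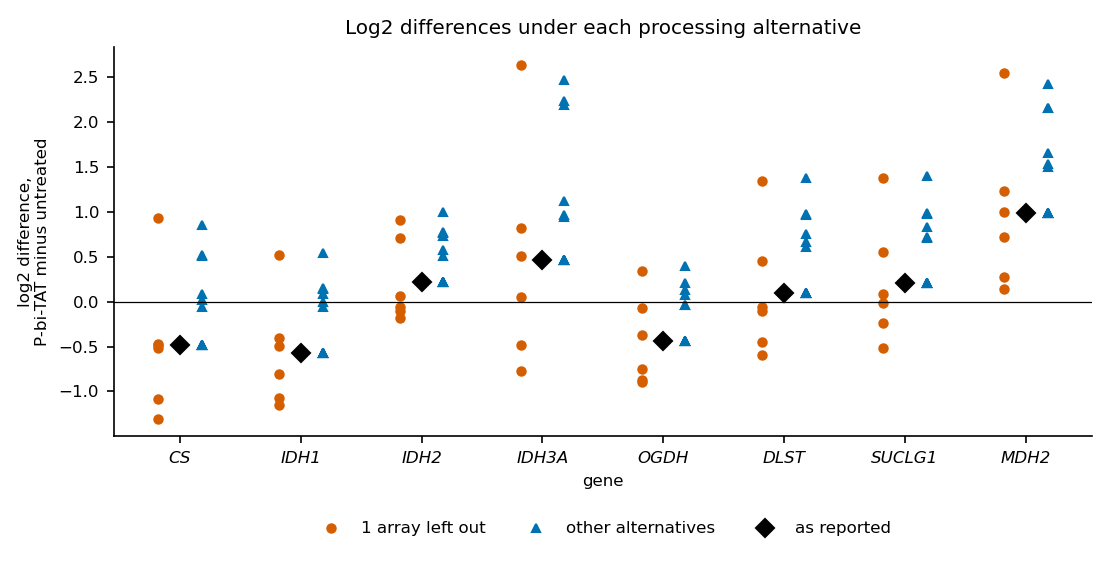
Log2 difference of P-bi-TAT minus untreated (vertical axis) of each enzyme (horizontal axis) as reported (black), with 1 array left out (orange) and under the other alternatives (blue). MDH2 stays above 0 in all of them, and the other 7 enzymes cross 0.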

How the data were processed

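Expression values on the log2 scale, which the authors deposited for every probe set of each array, were used unchanged. The sources disagree on how they were made, since RMA with Transcriptome Analysis Console 4.0.1.36 is in the processing notes and SST-RMA in the methods. The genome build is not given in the sources used here. Of the probe sets, 2903 controls were left out and 21448 were fitted, of which 17709 carry 1 symbol and stand for 17687 genes, with the brightest probe set on average taken where a gene had several. The groups were compared in limma 3.58.1 (lmFit and eBayes, R 4.3.3), with p-values adjusted by the Benjamini-Hochberg method over all gene probe sets, and a list is described by its counts beside those of all genes. The fit was tested on simulated data, in which no array was shifted as P-bi-TAT replicate 1 was. A gene was called above the negative controls in a group where its mean exceeded the mean of the group's negative control medians. Groups and replicate numbers come from the sample titles.

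The enzymes, lists and tests were chosen with earlier results of these data known. The genes named are the 8 measured enzymes, the other enzymes of the cycle, any gene of the wider list at 1.5-fold and an unadjusted p under 0.05 in the fit of all arrays or of those other than P-bi-TAT replicate 1, and the 5 genes most like the mean of the enzymes. The markers of glioma lines and of other cell types come from their own lists. MDH1, PDHA1, PDHB and GLUD1 are outside this rule and were named after their values were seen. Genes of the lists that were not measured are not reported here. Promoters are from RefSeq. Percentiles within an array were added after the data were seen. The alternatives left out each array, used the replicate number as a block, normalized by quantiles or medians, removed the intensity trend of each array, left out the dimmest 33.3% of probe sets, changed eBayes, weighted the arrays by limma's estimates, applied the one-way test of the study, or averaged probe sets.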

Additional observations from a re-analysis of the deposited data

How the results depend on the processing

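No enzyme of the 8 passed an adjusted p under 0.05 in any of the 18 alternatives. The lowest adjusted p from limma were 0.0613 for MDH2 and 0.0870 for IDH3A. Both came from the fit with array weights, where 7 of all genes passed. By the limits of 1.5-fold and unadjusted p, 0 of the 8 were higher, but 1 was after removal of the intensity trend and 1 after quantile normalization, 2 when either was combined with leaving out P-bi-TAT replicate 1, and 5 with array weights, which gave that array a weight of 0.11. Leaving out 1 array gave 0 to 5, the 5 coming from P-bi-TAT replicate 1, and a median of the enzymes between -0.61 and 1.13. Of the other 38 genes, where 0 were higher and 0 lower, 1 was higher after quantile normalization, 1 after median centring, 2 with the trend removed, 2 and 3 when quantile normalization or trend removal went with leaving out P-bi-TAT replicate 1, and 7 with array weights. In these last 3 settings 2, 2 and 1 were lower, and 1 was lower in the one-way test. Leaving out 1 array gave 0 to 4 higher and 0 to 1 lower, the 4 without P-bi-TAT replicate 1 and the 1 without untreated replicate 2. Where a count was above 0, the counts over all genes in that setting are given below.

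Signs turned from negative to positive for CS, IDH1 and OGDH with quantile normalization (0.0837, 0.0837 and 0.20), for CS and OGDH with median centring (0.0214 and 0.0714), for OGDH with the trend removed (0.13), for CS and IDH1 with P-bi-TAT replicate 1 left out and quantile normalization (0.52 and 0.15) or trend removal (0.51 and 0.14), and for CS, IDH1 and OGDH with array weights (0.85, 0.54 and 0.40). With 1 array left out the log2 difference ran from -1.30 to 0.93 for CS, -1.15 to 0.52 for IDH1, -0.18 to 0.91 for IDH2, -0.77 to 2.64 for IDH3A, -0.89 to 0.34 for OGDH, -0.59 to 1.34 for DLST, -0.51 to 1.38 for SUCLG1 and 0.14 to 2.54 for MDH2. The highest of each came from leaving out P-bi-TAT replicate 1. The cause was not tested.

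Over all genes, 34 higher and 880 lower became 1638 and 939 without P-bi-TAT replicate 1, 675 and 552 with quantile normalization, 381 and 220 with median centring, 756 and 653 with the trend removed, 1928 and 1694 with array weights, and 12 and 276 without the dimmest probe sets. With P-bi-TAT replicate 1 left out, they were 992 and 857 after quantile normalization and 1154 and 893 after trend removal. Without untreated replicate 2 they were 15 and 643, and in the one-way test 46 and 1060. The median of all genes moved from -0.43 to -0.00 with quantile normalization and to 0.08 with median centring. With the replicate number as a replicate block, 0 enzymes were higher and 0 lower, MDH2 had 0.99, and 30 genes were higher and 765 lower. Deviations of same-numbered arrays correlated at 0.304, 0.0361 and 0.333 for replicates 1, 2 and 3, and those of differently numbered arrays at -0.378 to 0.15. The values for replicates 1 and 3 were thus the highest, and an effect shared by replicate number was not tested further. The sample titles do not say that the numbers pair the samples, and the main fit did not pair them.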
